A study of Caenorhabditis elegans with 2 samples.

Results

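Nuclear hormone receptors are transcription factors with a zinc-finger DNA-binding domain and, in most members, a ligand-binding domain that can hold small lipophilic molecules such as sterols and fatty acids. C. elegans carries an unusually large family, most of it descended from relatives of the vertebrate receptor HNF4, with many members side by side on chromosome V. The best described members control fat metabolism (NHR-49, NHR-80), breakdown of propionate (NHR-68), moulting (NHR-23, NHR-25) and the choice between reproductive growth and the dauer stage (DAF-12, the receptor of dafachronic acids). MXL-2, which resembles vertebrate Mlx, pairs with the Mondo protein MML-1. The pair has been described as acting in the long life of worms without a germline, a setting in which DAF-12, NHR-49 and NHR-80 have also been described.

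The data mapped where tagged MXL-2 lies on chromatin (ChIP-seq). Strain RW12316 carries mxl-2 with a TY1, EGFP and 3xFLAG tag inserted by CRISPR, and whole L4 larvae of 48 h were taken after synchronisation as starved L1. Chromatin was precipitated with an antibody against GFP in 2 biological replicates of 1 group, although the labels elsewhere give mxl-2 as the antibody. No control library was analysed here, the depth of the libraries is unknown, and all tissues of the larva were pooled, so a strong region in few cells and a weak one in many cannot be told apart. The genes described are the protein-coding genes named nhr with a number, and daf-12. They came to 269 of 19973 protein-coding genes, and 1 further nhr gene was not analysed here. A gene was given a region where the region's summit lay in the gene body or within 2 kb of its annotated 5' end.

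The sequences below are 101 bases around the summit of 5 of the regions described next, on the plus strand of ce11. They show the E-box CACGTG, the known site of Max-like proteins, or a tRNA gene. The capitals mark CACGTG at nhr-46, nhr-68 and nhr-32, and the exons of a tRNA gene at nhr-17 and nhr-255. The stretch at nhr-68 has 73 bases because the annotated transcript next to it was left out.
nhr-46 IV:5756080-5756180: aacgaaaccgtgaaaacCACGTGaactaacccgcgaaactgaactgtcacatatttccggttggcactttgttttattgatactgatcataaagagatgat
nhr-17 X:12665185-12665285: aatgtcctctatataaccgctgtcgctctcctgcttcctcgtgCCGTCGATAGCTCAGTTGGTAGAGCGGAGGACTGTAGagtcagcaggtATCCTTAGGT
nhr-68 V:11572991-11573063: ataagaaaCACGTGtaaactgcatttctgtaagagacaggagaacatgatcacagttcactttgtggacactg
nhr-255 X:15742041-15742141: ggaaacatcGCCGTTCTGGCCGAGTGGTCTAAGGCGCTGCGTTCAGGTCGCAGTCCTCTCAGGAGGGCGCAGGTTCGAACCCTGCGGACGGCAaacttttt
nhr-32 X:13251564-13251664: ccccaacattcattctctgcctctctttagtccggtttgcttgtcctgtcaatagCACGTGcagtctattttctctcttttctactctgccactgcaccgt

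The whole-experiment thresholded list held 11 regions at 10 of the 269 receptor genes, of 968 regions in all. That is 3.72% of the receptor genes (exact 95% interval 1.80 to 6.73), against 4.94% of all protein-coding genes by the same rule. The share of receptor genes with a region was thus near the share of all genes, and the interval takes in the value of all genes. Regions within 2 kb upstream of the 5' end were found at 5 receptor genes, or 1.86% (0.606 to 4.28), against 2.87% of all genes. In the replicates' own lists, 7 receptor genes (2.60%) had a region in replicate 1 and 6 (2.23%) in replicate 2, against 2.33% and 2.38% of all genes. The mean over the replicates was 2.42% ± 0.263 for receptor genes and 2.36% ± 0.0389 for all genes (SD, n = 2). The SD for receptor genes rests on 7 and 6 of the same 269 genes. It shows how the 2 lists vary and is no yardstick for the difference between the means. A region that lay in both replicates' lists was found at 6 receptor genes, or 2.23%, against 1.54% of all genes. No test of a difference between receptor genes and all genes was run, and intervals cover counting error only.

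The region of highest signal belonged to nhr-46 (IV:5756078-5756183), with its summit in an intron, 1732 bp into the gene, and with CACGTG from −33 bp of the summit, counted along the plus strand. Its signal, the enrichment as the authors' peak caller scaled it, was 232, which placed it 59th in the list. The signal was 126 in replicate 1 and 104 in replicate 2, and both replicates' thresholded lists held it. The irreproducible discovery rate (IDR), a measure of how unlike a candidate's ranks are between repeated sets, low where the ranks repeat, was 4.08e-05. Which sets were compared for the whole-experiment list was not stated, and they matched neither replicate. A low IDR in that list is therefore not read here as agreement between the 2 biological replicates. No other protein-coding 5' end lay nearer than that of nhr-46.

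Next came nhr-35 on chromosome X, with a summit 409 bp upstream of the 5' end (signal 161, IDR 0.000113). Replicate 1 gave a signal of 89.2 and replicate 2 one of 73.4, both in the thresholded lists. A second region, of signal 104, lay 2059 bp upstream of nhr-35 (X:4530502-4530761), just outside the 2 kb limit. It was in the list of replicate 1 with a signal of 57.4 and missed that of replicate 2 with one of 45.2.

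A single region stood at a receptor with a described role in metabolism. It belonged to nhr-68, which acts with nhr-10 in switching on the propionate shunt when vitamin B12 is low (V:11572883-11573142, signal 112, IDR 0.000469). The summit lay 427 bp upstream of nhr-68 and held CACGTG at −14 bp. Both replicates' lists held the region, with a signal of 51.8 in replicate 1 and 62.4 in replicate 2. The nearest 5' end, however, was that of H12C20.7, 23 bp from the summit, so the region cannot be given to nhr-68 alone.

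Intronic regions were also found at nhr-19 and nhr-43. The region of nhr-19 (II:9603468-9603727, signal 99.4) lay 1928 bp into the gene and 1652 bp from the nearest annotated transcript start. Both lists held it, with 46.9 in replicate 1 and 59.8 in replicate 2, and CACGTG lay inside the region but not within 50 bp of the summit. That of nhr-43 (IV:11901297-11901556, signal 81.6) lay 1837 bp into the gene and overlapped the noncoding RNA gene C29E6.9. It was in the list of replicate 1 (48.8, IDR 0.00363) and not in that of replicate 2 (35.0, IDR 0.166).

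A pair of regions in both replicates' lists lay on tRNA genes. The first, in an intron of nhr-17 (X:12665105-12665364, signal 125), covered the tRNA gene C02B4.t2 (X:12665228-12665311, 84 bp) on the strand opposite to nhr-17, and the noncoding RNA gene C02B4.8. Its signal was 66.4 in replicate 1 and 62.7 in replicate 2, and the nearest protein-coding 5' end was that of the neuropeptide-like gene nlp-76, 1332 bp away. The other lay 519 bp upstream of nhr-255 (X:15741961-15742220, signal 103) on the tRNA gene ZK678.t1 (X:15742050-15742133) and the noncoding RNA gene ZK678.11. Replicate 1 gave 55.7 there and replicate 2 gave 44.8. Whether these regions belong to the tRNA gene or to the receptor gene cannot be told apart.

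The 4 weakest regions were in neither replicate's own list. At nhr-142 (V:5790977-5791236, signal 69.8), 554 bp upstream, the signal was 30.5 in replicate 1 and 38.7 in replicate 2, and the 5' end of F44E7.9 was nearer, at 123 bp. The second region of nhr-17 (X:12665694-12665953, signal 69) lay in a coding exon, with 32.5 in replicate 1 and 31.3 in replicate 2. At nhr-32 (X:13251484-13251743, signal 67.2), 350 bp upstream, CACGTG began at +5 bp from the summit. Replicate 2 gave a signal of 45.7 (IDR 0.0714) at nhr-32, whereas replicate 1 had no candidate there. In the whole-experiment list the IDR of this region was nevertheless 0.00428. The weakest, in a coding exon of nhr-71 (X:13748537-13748796), had a signal of 58.5, with 35.4 in replicate 1 and 24.4 in replicate 2. The regions of nhr-32 and nhr-71 were absent from the conservative list, which held the other 8 receptor genes.

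**Figure D1:**
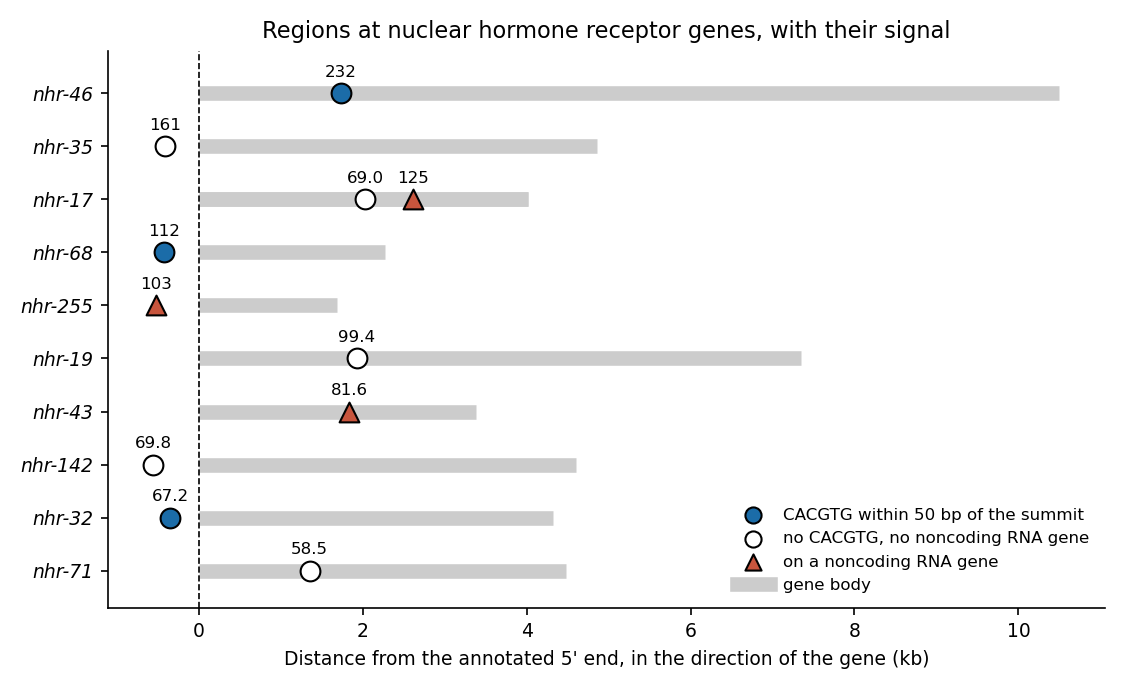
Position of each region's summit relative to the annotated 5' end of its receptor gene, in kb along the gene (grey bar: gene body; the number is the signal in the whole-experiment list). The strongest summit, of nhr-46 (232), lies in an intron with CACGTG, and 5 summits lie upstream, between −350 and −554 bp.

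**Figure D2:**
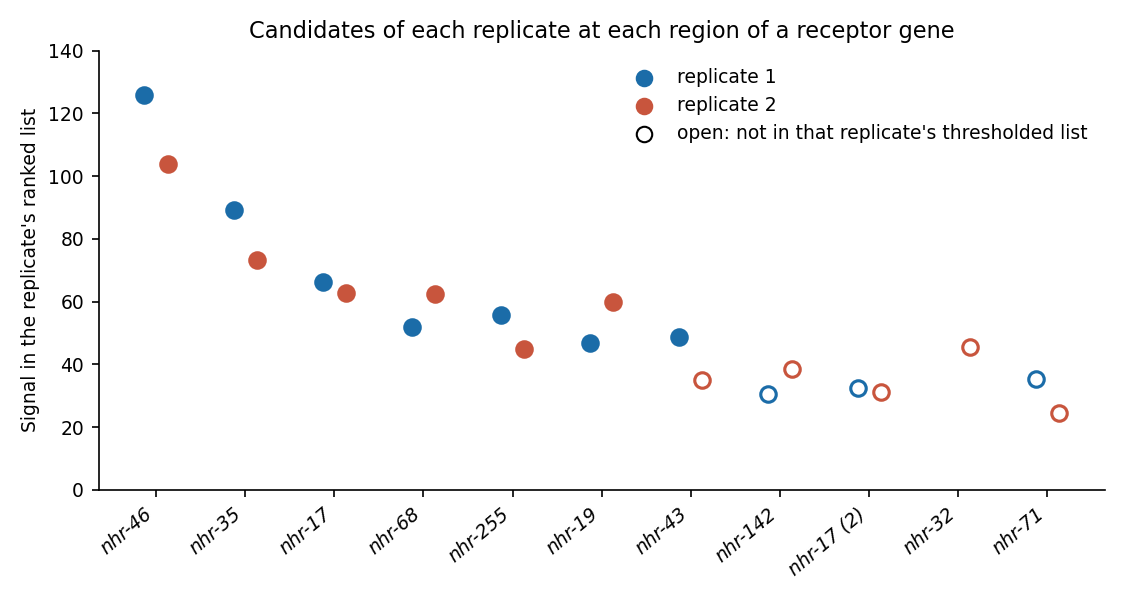
Signal of the candidate at each of the 11 regions in the ranked list of replicate 1 and of replicate 2; open circles are candidates that the replicate's thresholded list does not hold. The 6 regions in both lists reach at least 46.9 in replicate 1 and at least 44.8 in replicate 2, and nhr-32 has no candidate in replicate 1.

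As a set, the 11 regions at receptor genes had a median signal of 99.4, against 82.1 for all 968 regions. Medians in the replicates' own lists were 55.7, against 59.1 for all regions, in replicate 1 and 62.5, against 60.1, in replicate 2. The direction thus differed between the replicates. Of the 11 regions, 6 (54.5%, exact interval 23.4 to 83.3) were in both replicates' lists, against 29.9% of all regions. CACGTG within 50 bp of the summit was present in 3 (27.3%, 6.02 to 61.0), at nhr-46, nhr-68 and nhr-32, against 16.2% of all regions. In the replicates' own lists the order was the opposite, with 14.3% of the 7 regions at receptor genes in replicate 1, against 23.7% of all its regions, and 16.7% of 6 in replicate 2, against 22.5%, so no direction can be given. Noncoding RNA genes lay under 3 regions (27.3%), against 29.4%, and tRNA genes under 2 (18.2%), against 14%. With 11 regions these intervals are wide, and each takes in the value of all regions. Leaving out the 3 regions on noncoding RNA genes left 8 regions, of which 4 were in both lists, those of nhr-46, nhr-35, nhr-68 and nhr-19. By position, 5 summits lay upstream of the gene, 4 in introns and 2 in coding exons, and for 7 of the 11 the nearest protein-coding 5' end was that of the receptor gene.

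E-boxes were common at receptor genes, as they were at all genes, and in both sets few lay at a region. Their gene bodies, with 2 kb on either side of the 5' end, held 228 CACGTG sites at 140 of the 269 genes (52.0%), against 15355 sites at 55.8% of all genes. Of the 228 sites, 3 (1.32%) lay within 50 bp of a region's summit, against 0.853% of the sites at all genes. A further comparison with every candidate of the ranked list gave 25 sites at a summit (11.0%), against 12.4% at all genes. The strongest of these outside the thresholded list had a signal of 56.7 (IDR 0.103) and lay at nhr-31, which acts in the excretory cell. Another followed at nhr-34, with a signal of 54.1 (IDR 0.0461). From 250 bp before to 50 bp after the 5' end, 11 receptor genes (4.09%) held CACGTG, against 5.82% of all genes. The letters were read on both strands, where CACGTG is its own reverse complement, and a match marks letters, not occupancy.

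The receptor genes with a region were spread unevenly over the chromosomes. Chromosome X held 24 receptor genes, of which 5 (20.8%, exact interval 7.13 to 42.2) had a region, nhr-35, nhr-17, nhr-255, nhr-32 and nhr-71, against 6.55% of all genes on X. Chromosome V held 167 of the 269 (62.1%), against 25% of all genes, and 2 of these 167 (1.20%, 0.145 to 4.26), nhr-68 and nhr-142, had a region, against 3.46% of all genes on V. Among the remaining chromosomes, IV had 2 of 32 (6.25%, against 4.63% of all genes there) and II had 1 of 15 (6.67%, against 4.90%). The counts of 0 of 23 on I and 0 of 8 on III leave upper bounds of 14.8% and 36.9%, against 5.35% and 6.06% of all genes there. On each of these chromosomes the interval takes in the share of all genes. The lower bound for X (7.13%) lies only just above the share of all genes on X (6.55%). The intervals were not adjusted for the number of chromosomes compared. In the conservative ranked list, 4 of the 24 (16.7%) had a candidate at an IDR of 0.01 or lower, against 6.55% of all genes on X. No interval was computed for that count. Of the 5 genes, 3 had a region in both replicates' lists. In each replicate's ranked list, 3 of the 24 (12.5%) had a candidate at an IDR of 0.01 or lower. Among all genes on X that share was 3.30% in replicate 1 and 3.41% in replicate 2. After leaving out regions on noncoding RNA genes, 4 of the 5 genes kept a region. Of the 3 in both lists, 1 was then left, nhr-35. Receptor genes on X were also long, with a median of 4579 bp, against 2548 bp for all genes on X, and on V their median was 2146 bp, against 1754.5 bp. The part of length in the difference between chromosomes was not tested.

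**Figure D3:**
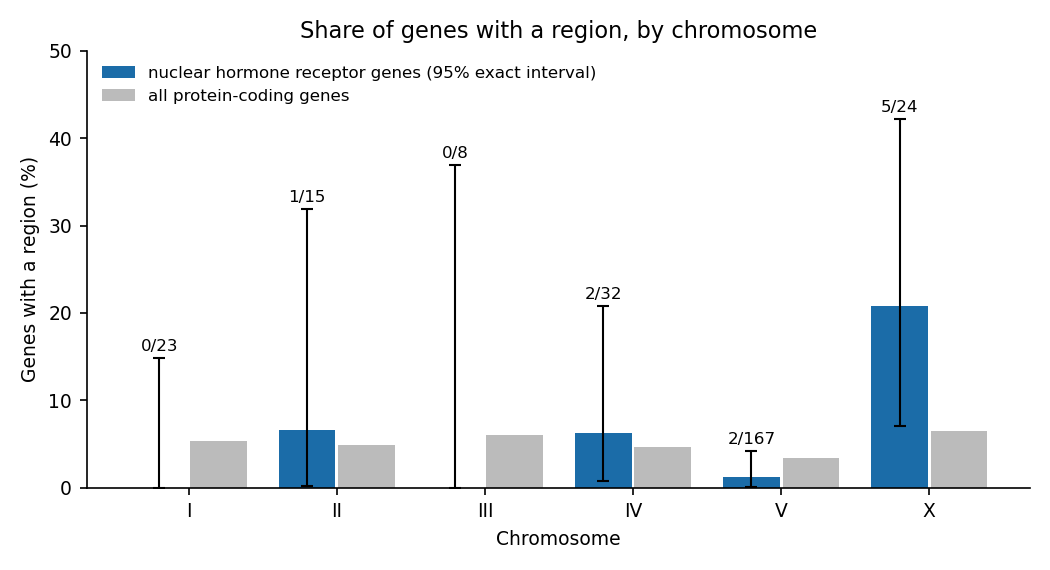
Share of genes with a region in the whole-experiment list by chromosome, for receptor genes (blue, left, with exact 95% intervals and counts) and all protein-coding genes (grey, right). Receptor genes on X stand at 20.8% and those on V at 1.20%, against 6.55% and 3.46% of all genes there.

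Most receptor genes with a region were long. In the longest class of genes (3637 bp and over), 7 of 65 receptor genes had a region (10.8%), against 7.63% of all genes. From 2028 to 3636 bp the count was 2 of 107 (1.87%), against 4.43%, and from 1216 to 2027 bp it was 1 of 91 (1.10%), against 3.05%. No region was found at the 6 shorter receptor genes, against 4.66% of all genes of that length. The median length was 2309 bp for receptor genes and 2027 bp for all genes.

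Receptor genes directly next to one another in gene order had no region in the whole-experiment list. In gene order, 137 of the 269 (50.9%) stood next to another receptor gene, in 44 runs of up to 9 genes, with 107 of these genes on chromosome V. Of the 137, 0 had a region there (exact upper bound 2.66%), against 4.94% of all genes. The count of 0 depends on this definition of neighbours. The receptor gene nhr-101 ends at V:11572549 and nhr-68, which has a region, starts at V:11573440. The 5' end of H12C20.7 lies between them, and neither receptor gene was counted in a run. The count was 1 in the conservative list (nhr-27), where 5.07% of all genes had a region. It was 1 (nhr-102) with 5 kb of flank, against 9.01% of all genes. Where any base of a region counted it was also 1 (nhr-102), against 5.16%. Among the 132 receptor genes outside such runs, 10 (7.58%) had one, against the same 4.94%. On V alone, 2 of the 60 outside runs (3.33%) had a region, close to the 3.46% of all genes on V, and 0 of the 107 in runs. Genes in runs were shorter (median 2148 bp, against 2722.5 bp outside), and their strongest candidates were somewhat weaker, with a median signal of 33.1 over the 120 that had one, against 37.4 over 115 outside. This split was chosen after the values were seen, and its share in the low count on V was not tested. In the ranked list, 40 receptor genes shared their strongest candidate with a neighbouring receptor gene, at 20 candidates, so these values are not independent.

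The ranked lists, which hold candidates far below the threshold, give a value for most of the 259 receptor genes without a region. A candidate lay at 235 of the 269 receptor genes (87.4%), against 90.7% of all genes. The strongest candidate per gene had a median signal of 34.7 (quartiles 28.5 and 43.0), against 36 (29.6 and 43.9) for all genes. In replicate 1 the medians were 20.2 for receptor genes and 20.5 for all genes, and in replicate 2 they were 20.6 and 20.8. Candidates numbered 0.855 per kb of receptor gene and 0.860 per kb of all genes. At an IDR of 0.05 or lower, 25 receptor genes (9.29%, exact interval 6.10 to 13.4) had a candidate, against 9.97% of all genes. Of these 25, 9 were on X, or 37.5% of the receptor genes there, against 12.2% of all genes on X, and 7 were on V, or 4.19%, against 7.39%.

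**Figure D4:**
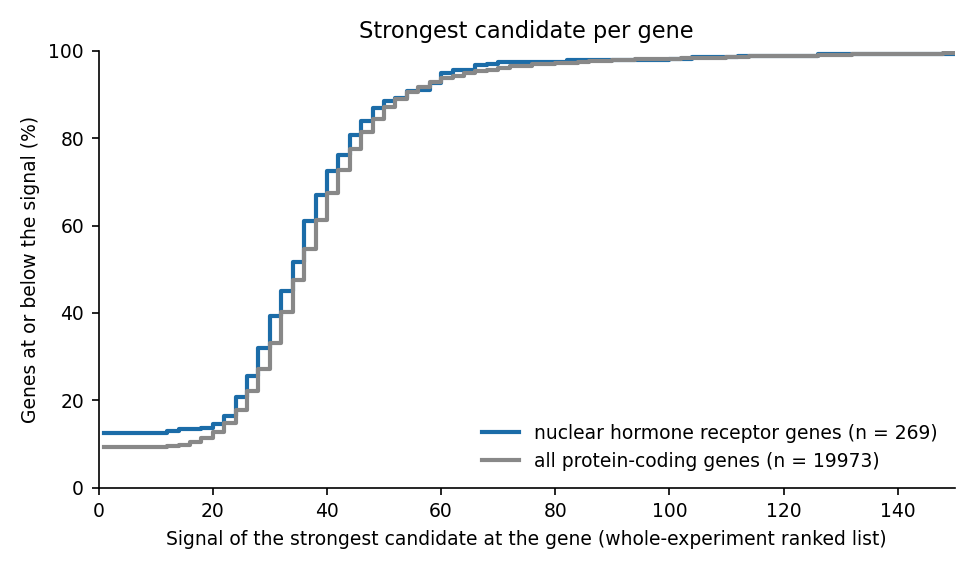
Cumulative share of genes by the signal of their strongest candidate in the whole-experiment ranked list, for receptor genes (blue) and all protein-coding genes (grey); genes with no candidate are counted at 0. The curves run close together, with 72.5% of receptor genes and 67.4% of all genes at a signal of 40 or lower.

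None of the 11 receptors with clear relatives in insects or vertebrates had a region, and with 4.94% of all genes having one, a count of 0 among 11 is near the background. A candidate at an IDR of 0.05 or lower lay at 3 of the 11 (27.3%), against 9.97% of all genes. The genes of these 11 were long, with a median of 5531 bp, and the part of length in this share was not tested. The strongest candidates of the 11 ranged from a signal of 31.0 to 65.8 with a median of 48.2. The highest belonged to daf-12, in a coding exon 28792 bp into a gene of 30968 bp, with a signal of 65.8 and an IDR of 0.0596. It gave 37.2 in replicate 1 and 25.5 in replicate 2, and daf-12 held 25 candidates in all. At nhr-25, the relative of fly Ftz-F1 that acts in epidermis and moulting, the strongest candidate lay 100 bp into the gene (58.5, IDR 0.0175). Replicate 2 had a signal of 37.5 at that position, whereas replicate 1 had no candidate. For nhr-23, the relative of vertebrate ROR receptors that drives moulting, the strongest candidate had a signal of 57.9 (IDR 0.0836) and 26.1 in each replicate. A lower value was found at nhr-8, a relative of DAF-12 with a described role in cholesterol balance, where the strongest candidate had a signal of 34.6 (IDR 0.374), below the median of all genes.

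Of the 16 receptors with described roles in metabolism and stress, 1 had a region, nhr-68 (6.25%, against 4.94% of all genes), and 2 had a candidate at an IDR of 0.05 or lower (12.5%, against 9.97%), both near the background. The second was nhr-49, the HNF4-like regulator of fat breakdown and desaturation, with a candidate 382 bp upstream (59.0, IDR 0.0237). It reached 25.5 in replicate 1 and 35.5 in replicate 2, neither in the thresholded lists. A candidate 617 bp upstream of nhr-114, which protects the germline under some diets, had a higher signal of 64.1 but an IDR of 0.572, with 32.4 in replicate 1 and 26.6 in replicate 2. Values lay lower at nhr-80, a partner of NHR-49 in fatty acid desaturation (43.4, IDR 0.654), and at nhr-62, which acts in the long life under dietary restriction (43.0, IDR 0.212). Over the 16 genes the median was 43.2, with a median length of 4509 bp. The other 242 receptor genes, shorter and less described, had a median of 34.1, and 9 of them had a region (3.72%, against 4.94% of all genes).

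**Figure D5:**
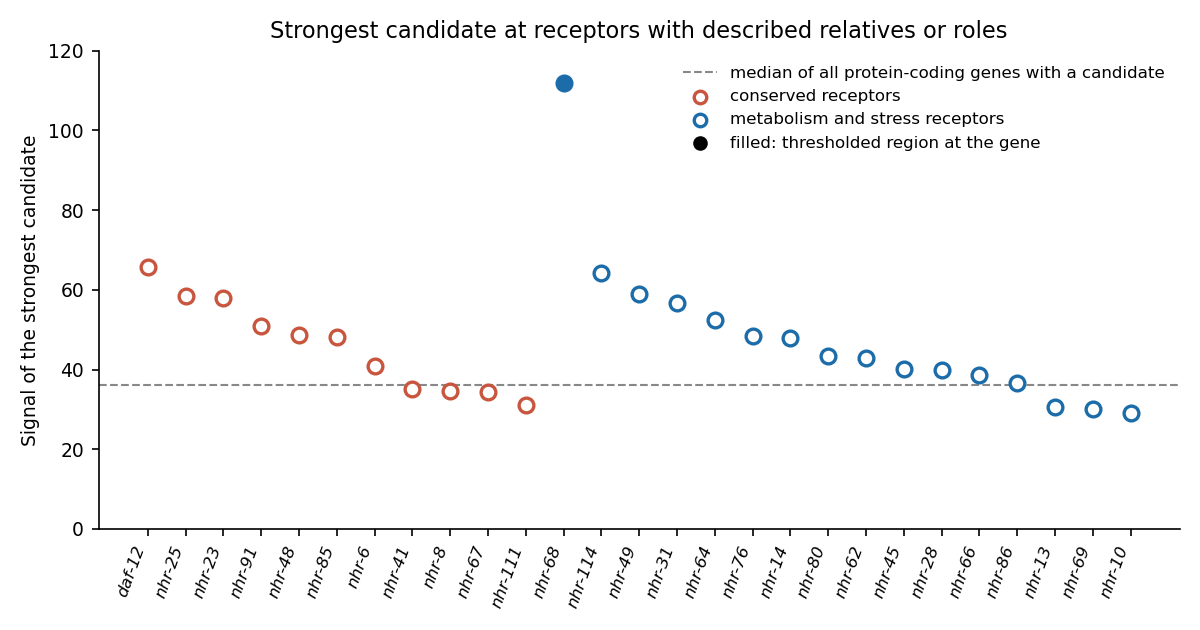
Signal of the strongest candidate in the whole-experiment ranked list at the 11 conserved receptors (red) and the 16 metabolism and stress receptors (blue), each ordered from high to low; the dashed line is the median of all protein-coding genes with a candidate, 36. The one filled point is nhr-68 (112), the only gene of either group with a thresholded region.

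Several less described receptors had candidates below the threshold. At nhr-27, the longest gene of the family (102756 bp, 97 candidates), the strongest lay in an intron and had a signal of 65.3 (IDR 0.0193). At nhr-164 it had a signal of 60.2 (IDR 0.0293) in a coding exon, with 32.8 in replicate 1 and 33.1 in replicate 2. The conservative list held the regions of both these genes, and of nhr-21 (51.8, 1532 bp upstream), which the whole-experiment list lacked. The neighbours nhr-109 and nhr-273 shared a candidate with a signal of 58.3 (IDR 0.0116), in an intron of nhr-109 and 1019 bp upstream of nhr-273. At nhr-34 the strongest had a signal of 61.4 (IDR 0.0519), and at nhr-237 one of 58.9 (IDR 0.0815). Signal and IDR did not order these genes alike, and nhr-71, with a region at an IDR of 0.00865, had a signal of 58.5 like that of nhr-25.

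Beyond the 2 kb limit, 8 further regions had a receptor gene's 5' end as the nearest protein-coding one. The strongest lay 2519 bp upstream of nhr-88 (II:2973990-2974249, signal 137), in both replicates' lists with 67.8 in replicate 1 and 80 in replicate 2. Another in both lists lay 2750 bp upstream of nhr-277 (IV:2740114-2740373, signal 125), with 67.9 in replicate 1 and 61.2 in replicate 2. The other 6 had signals between 65.3 and 104 and were in at most 1 list. They included a second region far upstream of nhr-46, at −5080 bp, with a signal of 103 and CACGTG, in the list of replicate 2 (64) and not in that of replicate 1 (38.8). Giving each region to the nearest 5' end alone, 13 receptor genes had one (4.83%), against 4.12% of all genes.

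Genes that work with the receptors were also read out, in lists of 4 to 6 genes. Beside their counts stand the shares of all genes with a region, 4.94% in the whole-experiment list, 2.33% in that of replicate 1 and 2.38% in that of replicate 2. Of 4 coregulators, 2 had a region, and the stronger was at cbp-1, the CBP/p300 acetyltransferase, 863 bp upstream (III:9765516-9765775, signal 202), in both lists with 110.5 in replicate 1 and 93.0 in replicate 2. The corepressor din-1, a partner of DAF-12, had one 791 bp upstream (II:11634270-11634529, signal 103) on the noncoding RNA gene ZK20.8, in both lists with 53.5 in replicate 1 and 43.3 in replicate 2. The Mediator subunit mdt-15, a partner of NHR-49, had a strongest candidate of 34.0 and gei-8 one of 39.9, neither past the threshold. No region was found at the 6 genes of dafachronic acid synthesis, whose strongest candidates had a median of 28.7, nor at the 4 receptors with other names, fax-1, unc-55, sex-1 and odr-7 (median 31.0). None lay at the 6 targets of NHR-49 in the whole-experiment list, where icl-1, of the glyoxylate cycle, had a candidate of 54.1 (IDR 0.0169) and a region in the list of replicate 2. Of the 5 genes of the propionate shunt, 0 had a region there, the highest candidate being that of hphd-1 (69.8, IDR 0.0116), and alh-8 (47.2) had a region in the list of replicate 2.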

How the data were processed

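Peak lists of 2 biological replicates of 1 group were analysed. The lists are on the ce11 assembly, per the labels. The authors deposited ranked candidates and a thresholded subset of them, per replicate and for both replicates together, the last also in a conservative version. The deposited signal is an enrichment as the authors' peak caller scaled it, and since each list has its own scale, signals rank candidates within 1 list only. The deposited −log10 column of the ranked lists gave the IDR, and no thresholded line had an IDR above 0.01 there. The aligner was not given in the sources used here, nor was the peak caller. With no read counts in these files, the libraries' depth is unknown.

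Overlapping lines of a list were joined, with the strongest summit kept, so that 983 lines of the whole-experiment list gave 968 regions and those of the replicates gave 448 and 454. Genes came from Ensembl release 115 on the same assembly (WBcel235), and symbols from RefSeq through WormBase identifiers, found for 19962 of 19973 genes and identical in both annotations for the 269 receptor genes. Bases were read from the RefSeq genome of that assembly. Positions are counted from 1. The bases of 1 region at a receptor gene are not reported here. A region was in a replicate's list where they overlapped by at least 1 bp. Intervals are exact (Clopper-Pearson) 95% binomial intervals. Counting was done in Python 3.11.15 with numpy 2.4.6 and scipy 1.17.1. Joining of lines, interval lookup, the reverse complement and assignment of positions to genes were checked on simulated input with known answers. The counts, the search for CACGTG and the overlap between replicates were not tested in this way.

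The receptor genes, gene lists and comparisons were chosen with earlier results of these data known, so nothing here is independent support. Named are all receptor genes with a region, the 10 without one whose candidates had the highest signal, and daf-12, nhr-49, nhr-80, nhr-23, nhr-25, nhr-8, nhr-62 and nhr-68 whatever their values. Genes beyond this rule (nhr-31, nhr-21, nhr-102, nhr-88, nhr-277 and members of the other lists) were named after their values were seen. Alternatives were other lists, assignment distances, windows and overlap rules.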

Additional observations from a re-analysis of the deposited data

How the results depend on the processing

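Of 50 values of 6 counts under other settings, 37 stayed within 1.5 times the count reported and 13 did not. Keeping the regions in the upper 50% by signal gave 6 receptor genes (2.23%, against 2.50% of all genes), 6 regions and 3 genes with an upstream region. Each replicate's own list also took the place of the whole-experiment list (448 regions in replicate 1 and 454 in replicate 2, against 968). It gave 7 receptor genes in replicate 1 (2.60%, against 2.33% of all genes) and 6 in replicate 2 (2.23%, against 2.38%). Regions numbered 7 and 6, with 3 genes with an upstream region and 1 region with CACGTG in either list. The share of all genes with an upstream region was not computed for these shorter lists. The share of regions with CACGTG was then lower at receptor genes than over all regions of the replicate's list (14.3%, against 23.7%, in replicate 1, and 16.7%, against 22.5%, in replicate 2), the opposite of the whole-experiment list. Gene bodies with 5 kb of flank gave 19 receptor genes (7.06%, against 9.01% of all genes) and 20 regions. A limit of 500 bp left 3 genes with an upstream region. With 1 kb of flank, 10 receptor genes (3.72%) had a region, against 3.64% of all genes, so which of the 2 shares is higher depends on the distance. The conservative list gave 11 receptor genes (4.09%, against 5.07% of all genes), 8 of them shared with the 10 reported. The number of regions in both replicates' lists was 6 under each setting tried. This count used both lists even where 1 replicate's list took the place of the whole-experiment list, so its constancy is no measure of stability. Assignment distances were not varied for it, and its values are among the 37. No paired analysis was possible because both replicates belong to 1 group. Depth is unknown, and the small number of regions limits each share.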
